A study of Mus musculus with 48 samples.

Results

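The 23 cells described here are single inner cell mass (ICM) cells of the mouse blastocyst that stand on the primitive endoderm progenitor (pPrE) branch of the study's dendrogram, out of 48 cells sequenced in all. They were divided by their own Nanog level, in CPM (a gene's counts divided by the total of the cell and brought to a common scale). Cells with Nanog at 50 CPM or more, 11 of the 23, are called Nanog-retained, and the other 12 are called Nanog-low. The branch was read by eye from the wells drawn in the dendrogram, since the labels give a well for each cell and no lineage. The other 25 cells stand on the epiblast progenitor (pEPI) branch and are given only as a reference.

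All 48 cells came from 3 embryos flushed at E3.75 after natural mating, carrying the Pdgfra H2B-GFP allele over a wild-type one, in which a fluorescent histone targeted to the Pdgfra locus marks cells that express this gene. Pdgfra H2B-GFP/+ mice had been crossed with F1 hybrids of C57BL/6JxCBA/J. The reporter genotype is the one given in the methods of the study, whereas the sample titles read WT. Embryos with a scattered mosaic of fluorescent cells were chosen, the trophectoderm was removed by immunosurgery, and the dissociated cells went into Smart-seq2, a protocol that reads full-length transcripts without molecular identifiers. No cell was treated, and both groups share stage, strain and reporter.

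The labels do not say which cell came from which embryo, so the cells are 1 sample and not replicates. For this reason no p-value is given for any gene. Values are described over cells, an SD is the spread between cells, and intervals of summed counts cover counting error of reads only. Reads without molecular identifiers include PCR copies, so these intervals are too narrow for transcripts and leave out the spread between cells. Intervals of shares of cells are exact binomial (Clopper-Pearson) ones, which also cover counting error only: cells of 1 embryo are not independent, and the intervals do not compare the groups. Because Nanog chose the groups and both groups come from the same clustered cells, every difference below is a description of these cells, selected on Nanog.

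In the blastocyst, epiblast and primitive endoderm arise from 1 pool of ICM cells. Nanog, a homeobox transcription factor, marks cells that become epiblast, and the zinc finger factor Gata6 marks cells that become primitive endoderm. Both are present together at first and then separate. Fibroblast growth factor 4, made by the epiblast, acts through its receptors and ERK to favour primitive endoderm, in which Gata6, Sox17, Gata4 and Sox7 appear in that order while Nanog is lost. Nanog mRNA in a cell on the pPrE branch is thus a marker of the other lineage, and alone does not show a wider epiblast programme.

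Depth was alike in both groups. Total counts per cell ran from 1718970 to 5638680 in retained cells, with a median of 3966920, and from 2240321 to 7342785 in low cells, with a median of 4519735.5. Genes detected ran from 9202 to 11547 and from 9565 to 11412, and mitochondrial genes took 4.48% to 9.82% and 5.99% to 9.43% of the counts. The groups were mixed unequally in another respect. Of the 23 cells, 12 had at least 100 counts over 4 genes of the Y chromosome (Kdm5d, Uty, Eif2s3y and Ddx3y) and 11 had at most 1. Cells without Y-linked counts were 7 of 11 among retained cells and 4 of 12 among low cells (63.6% and 33.3%). The cell of well E1 had 79 counts of Xist, the RNA that coats the inactive X chromosome, beside 721 Y-linked counts, whereas the other cells with Y-linked counts had 0. Whether this well held more than 1 cell was not tested, and E1 is 1 of only 4 retained cells with Y-linked counts. Ratios among these cells are given without it for some genes only, and all others include it. Because of this unequal mix, several comparisons below are also given within both kinds of cells. These were 4 retained and 8 low cells that had Y-linked counts, and 7 retained and 4 low cells that did not. Where no such values stand, the comparison is over all 23 cells and is not shown to hold in both kinds.

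Nanog itself ran without a wide gap across the threshold. Retained cells had 59.2 to 748.3 CPM with a median of 101.1, and low cells 0.421 to 46.1 CPM with a median of 11.3. The cells just inside the threshold were E1 and D5 at 59.2 and 59.9 CPM, and those just outside were E6 and D3 at 46.1 and 34.1 CPM. At the top stood B3, B8 and A1 with 245.3, 488.5 and 748.3 CPM, all with Y-linked counts, and the 8 other retained cells lay between 59.2 and 166.3 CPM. Of these 8, all except E1 lacked Y-linked counts. The pEPI cells had 126.9 to 1702 CPM with a median of 537.8, so that these 3 cells, together with D7 at 166.3 CPM, reached the pEPI range and the other retained cells lay under it. Reads that fit the pseudogene Nanog-ps1 were at most 0.515 CPM in any of the 23 cells, and Nanog-ps2 was listed at 0 in each of them.

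**Figure D1:**
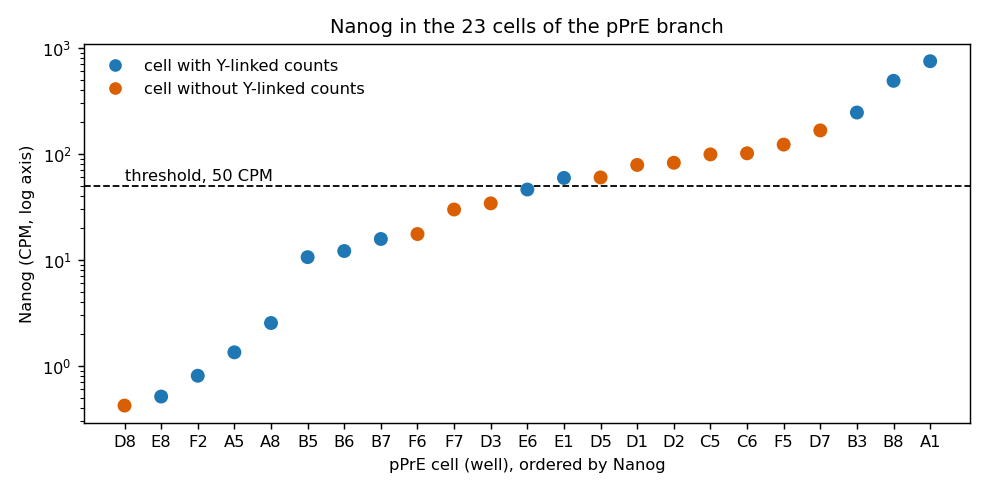
Nanog in each of the 23 pPrE cells (vertical axis, CPM on a log scale), ordered by level along the horizontal axis with the well of each cell, with the dashed line at the 50 CPM threshold. Blue dots are cells with and orange dots cells without Y-linked counts, and the levels run from 0.421 to 748.3 CPM with the closest cells on either side of the line at 46.1 and 59.2 CPM.

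The gene that chose the groups lies on chromosome 6 (GRCm38, 122707489 to 122714633, forward strand). Its promoter is shown because it holds the paired octamer and SOX letters through which OCT4 and SOX2 are known to act on Nanog. The stretch is chr6:122707239-122707538 of GRCm38.p6 from RefSeq, forward strand, and capitals mark TTTGCAT, octamer letters, and ACAATG, SOX letters, which begin 75 and 67 bases before the start.
Nanog promoter: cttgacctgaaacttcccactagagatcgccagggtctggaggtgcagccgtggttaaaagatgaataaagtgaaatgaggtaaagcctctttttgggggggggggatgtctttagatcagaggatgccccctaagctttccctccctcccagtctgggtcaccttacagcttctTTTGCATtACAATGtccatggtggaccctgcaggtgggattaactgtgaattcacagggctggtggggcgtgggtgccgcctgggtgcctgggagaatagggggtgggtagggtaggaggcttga
Over the 27025 mouse promoters of the same length, both strands searched, TTTGCAT stood in 4.59%, ACAATG in 12.8% and both in 0.844%. The letters are a description of this stretch and not of binding in these cells.

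The pPrE label held for most of the cells and least for those with the most Nanog. Over the 8 retained cells under 200 CPM of Nanog, Gata6 had a mean of 186.8 ± 90.2 CPM (SD, n = 8 cells), against 179.1 ± 73.1 CPM in the 12 low cells and 64.1 ± 83.4 CPM in the 25 pEPI cells. Sox17, an endoderm factor of the SOX family, had means of 321.2 ± 181.1, 279.6 ± 123.2 and 25.5 ± 34.2 CPM in the same groups. Gata4, which follows Gata6 in the lineage, had means of 216.7 ± 97.4, 248.8 ± 115.4 and 21.1 ± 52.0 CPM. These means of the 8 cells were close to those of the Nanog-low cells, although single cells lay outside the range of the low cells: D7 for Gata6 at 349.5 CPM, C6 and D5 for Sox17 at 569.5 and 538.7 CPM, and C5 for Gata4 at 85.5 CPM. The 3 cells above 200 CPM differed. Gata6 was 96.4 CPM in B3, 92.2 CPM in B8 and 19.8 CPM in A1. Sox17 was 35.6 CPM in B3, 0 in B8 and 38.6 CPM in A1, near the pEPI mean and under 11 of the 12 low cells, the exception being B6 at 32.3 CPM. Gata4 was 39.7 CPM in B3, 162.7 CPM in B8 and 73.7 CPM in A1, which was above the pEPI median of 0.267 CPM in each.

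Over all 11 retained cells, Gata6 ran from 19.8 to 349.5 CPM with a median of 118.7, against 51.5 to 273.1 CPM with a median of 186.2 in low cells. The groups overlapped, with 1 retained cell above and 1 below every low cell, and the log2 ratio of the means was -0.21 (here and below, with 1 CPM added to each mean). Sox17 ran from 0 to 569.5 CPM with a median of 206.1 in retained cells, and from 32.3 to 507.5 CPM with a median of 292.1 in low cells. Its log2 ratio was -0.22, and 2 retained cells lay above every low cell. Gata4 ran from 39.7 to 398.2 CPM (median 162.7) against 99.5 to 492.6 CPM (median 234.8). A retained cell had more Gata4 than a low cell in 31.1% of the 11 by 12 pairs, and the log2 ratio was -0.44. None of the 3 means differed by as much as 2-fold. Without the 3 cells above 200 CPM of Nanog the log2 ratios were 0.06 for Gata6, 0.2 for Sox17 and -0.20 for Gata4, so the lower means of Gata6 and Sox17 rested on those cells.

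The same 3 factors differed by kind of cell. Among cells with Y-linked counts the log2 ratio was -1.10 for Gata6, -2.32 for Sox17 and -0.82 for Gata4. Without E1 these were -1.29, -3.34 and -1.36. Among cells without Y-linked counts they were 0.02, 0.12 and -0.36. The 4 retained cells with Y-linked counts are E1 and the 3 cells with the most Nanog, so kind of cell and Nanog level cannot be told apart here.

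**Figure D2:**
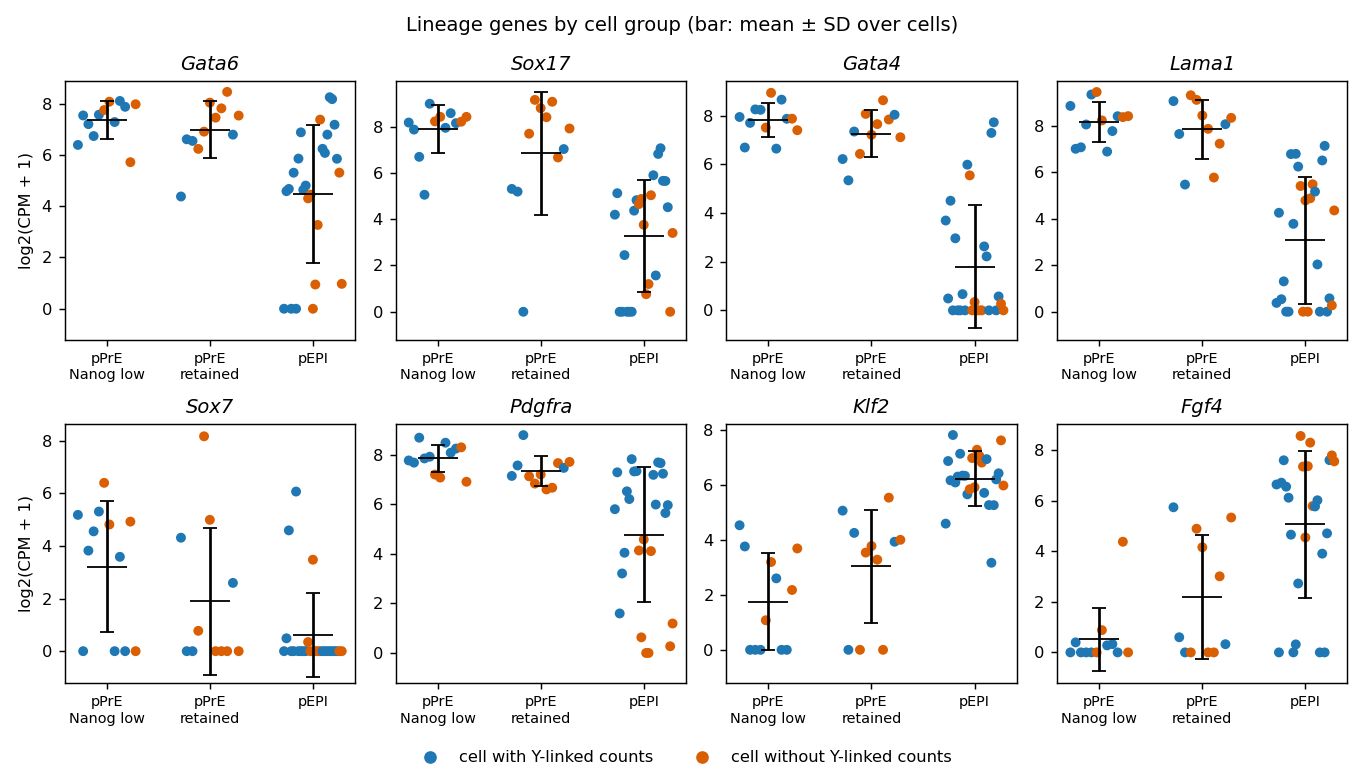
Level of 8 lineage genes (vertical axis, log2 of CPM + 1) in Nanog-low pPrE cells (n = 12), Nanog-retained pPrE cells (n = 11) and pEPI cells (n = 25), 1 dot per cell, blue with and orange without Y-linked counts, with black bars for the mean and SD over cells. Gata6, Sox17, Gata4 and Lama1 overlap between both pPrE groups and stand higher there than in most pEPI cells, while Klf2 and Fgf4 reach 10 CPM in 7 and 4 retained cells against 3 and 1 low cells.

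Sox7, the last of the sequence to appear, was read at 10 CPM or more in 8 of 12 low cells and 3 of 11 retained cells (66.7%, interval 34.9% to 90.1%, and 27.3%, interval 6.02% to 61.0%), and in 3 of 25 pEPI cells. The numbers of cells with any Sox7 counts were the same when all cells were thinned to 1718970 counts, 8 of 12 and 5 of 11 against 8 of 12 and 5 of 11 without thinning. The means ran the other way, 21.7 ± 24.2 CPM in low and 31.1 ± 85.4 CPM in retained cells, because C6 alone had 286.6 CPM. Leaving C6 out turned the log2 ratio from 0.50 to -1.79. Creb3l2, a membrane-bound bZIP factor, had means of 98.8 ± 65.9 and 138.7 ± 60.2 CPM (log2 ratio -0.49). Of the 8 factors on the list of PrE transcription factors, 6 were at a mean of 10 CPM or more. None of these 6 passed the 2-fold rule described below, which 1.31% of all genes passed as higher and 1.17% as lower. The median log2 ratio of the 8 was -0.1 over all cells, beside 0.03 over all genes at 1 CPM or more. It was -1.15 among cells with and 0.07 among cells without Y-linked counts.

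A score over the 8 factors, the mean of log2(CPM + 1), placed the retained cells between the other groups. It was 4.67 ± 0.92 in low cells, 4.20 ± 1.26 in retained cells and 1.95 ± 0.80 in pEPI cells. The 8 retained cells under 200 CPM of Nanog scored 4.72 ± 1.03 and the 3 above it 2.81 ± 0.47. Among cells with Y-linked counts, low and retained cells scored 4.37 ± 0.73 and 3.10 ± 0.70, and among cells without, 5.26 ± 1.07 and 4.83 ± 1.06. The score does not enter any test, since its genes helped to build the branch.

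Of the 6 growth factor receptors listed, 4 were at a mean of 10 CPM or more, and these were read in both groups. Pdgfra, the PDGF receptor whose locus drives the reporter, ran from 95.7 to 440.5 CPM (median 146) in retained and from 118.9 to 410 CPM (median 234.8) in low cells. The groups overlapped, 3 retained cells lay under every low cell, and the log2 ratio was -0.47, with -0.24 and -0.31 among cells with and without Y-linked counts. Fgfr1, the FGF receptor shared by epiblast and endoderm, had means of 61.3 ± 51.2 and 98.3 ± 74.9 CPM (log2 ratio -0.67). Fgfr2, the receptor that marks the endoderm side, had means of 117.8 ± 81.7 and 96.5 ± 56.6 CPM (log2 ratio 0.29). Fgfr3, a further FGF receptor, was the 1 member of these 4 past the 2-fold rule, beside 1.31% higher and 1.17% lower of all genes. It had 0 to 173.9 CPM (median 22.7) in retained and 0 to 61.1 CPM (median 3.99) in low cells and a log2 ratio of 1.57. Its 4 highest retained cells, D1, D7, C5 and F5, had no Y-linked counts, and among cells with Y-linked counts the ratio was -0.25, or -2.99 without E1.

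Genes of the later endoderm function were uneven between cells. Of the 5 uptake receptors and adaptors listed, 4 were at a mean of 10 CPM or more. Of these, 1 passed the 2-fold rule as higher and 1 as lower, beside 1.31% and 1.17% of all genes. Amn, which anchors the uptake receptor cubilin, had a mean of 59.7 ± 90.7 CPM in retained and 16.3 ± 35.2 CPM in low cells (log2 ratio 1.81, past the 2-fold rule). Its high values lay in C5, D1 and C6 at 227.5, 190.2 and 179.5 CPM, and in D3 at 121.5 CPM on the low side, all cells without Y-linked counts. Among cells with Y-linked counts no retained cell had any Amn, and the log2 ratio there was -2.06. Lrp2, the uptake receptor megalin, stood the other way with 6.94 ± 11.3 and 22.02 ± 26.1 CPM (log2 ratio -1.54, past the 2-fold rule). Its ratios were -0.25 and -2.90 among cells with and without Y-linked counts. The former includes E1 at 34.5 CPM, beside B3 at 12.4 CPM and A1 and B8 at 0. Dab2, the adaptor that sorts these receptors, reached 10 CPM in 3 of 11 retained and 0 of 12 low cells (exact upper limit 26.5%), the 3 being C6 at 166.5, D1 at 24.4 and C5 at 20.4 CPM. Cubn, cubilin itself, had means of 66.6 ± 37.3 and 82.1 ± 56.6 CPM.

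Laminin and collagen IV, the basement membrane proteins that the primitive endoderm lays down, did not separate the groups. Lama1, the laminin alpha chain, ran from 43.4 to 637.2 CPM (median 268) in retained and from 117.8 to 702 CPM (median 315.9) in low cells, with a log2 ratio of -0.13. The pEPI mean was 30.3 ± 41.7 CPM, under every pPrE cell, and A1, with the most Nanog, had 535.3 CPM of Lama1. Lamb1 and Lamc1, the partner chains, had log2 ratios of -0.12 and 0.00, and Col4a1, the collagen IV chain, -0.05. Of the 10 basement membrane genes at 10 CPM or more none passed the 2-fold rule, beside 1.31% higher and 1.17% lower of all genes. A count of 0 in a list of this size is near those shares and says little about the list. Of the 10, 6 lay above 0 and 4 below, and the median of the list was 0.13. The median was -0.15 among cells with and 0.04 among cells without Y-linked counts. The list's score, the mean of log2(CPM + 1), was 6.57 ± 0.57 in low cells. It was 6.86 ± 0.59 in the 8 retained cells under 200 CPM of Nanog and 5.75 ± 0.47 in the 3 above it. Nid2, a nidogen that links laminin to collagen, had the largest ratio of the list at 1.10, which was 0.74 without its highest cell. The list of 8 enzymes and chaperones of collagen maturation had a median of 0.04 and none past the rule, beside the same shares of all genes. Its median was -0.56 among cells with Y-linked counts, with 7 of the 8 below 0. Among cells without such counts it was 0.01, with 4 of the 8 below 0. Its largest ratio in size was that of Plod1, a lysyl hydroxylase, at -0.67.

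Of the epiblast side, Klf2, Fgf4, Sox2 and Prdm14 were picked from the lists of pluripotency factors and epiblast ligands. They reached 10 CPM in more retained than low cells, with means under those of pEPI cells. The share of all genes with this pattern was not computed, so it is no result about these lists. Klf2, a factor of the naive pluripotency network, ran from 0 to 45.9 CPM (median 12.8) in retained and from 0 to 22.3 CPM (median 2.33) in low cells, against a pEPI mean of 90.6 ± 52.9 CPM. It reached 10 CPM in 7 of 11, 3 of 12 and 24 of 25 cells (63.6%, interval 30.8% to 89.1%; 25%, interval 5.49% to 57.2%; 96.0%, interval 79.7% to 99.9%). Its log2 ratio was 1.27, and 1.53 and 0.99 among cells with and without Y-linked counts. The summed reads gave a log2 ratio of 1.53 with a counting interval of 1.32 to 1.74.

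Fgf4, the ligand made by the epiblast, had 0 to 52.5 CPM (median 0.515) in retained and 0 to 19.8 CPM (median 0) in low cells. It reached 10 CPM in A1, F5, C6 and D1 among retained cells, in F6 among low cells, and in 19 of 25 pEPI cells, whose mean was 97.7 ± 104.2 CPM. The log2 ratio was 2.35, and 3.71 and 1.20 among cells with and without Y-linked counts, where the first rests on A1. Sox2, the SOX partner of OCT4, reached 10 CPM in 4 of 11 retained and 3 of 12 low cells (21 of 25 pEPI cells), with 28.9 CPM in both D7 and B8, 21.6 CPM in B3 and 18.97 CPM in F5. Its log2 ratio was 1.18, and 1.31 and 1.17 within the kinds. Prdm14, a repressor that guards naive pluripotency, was read above 10 CPM in D7, C6 and B8 at 34.8, 29.8 and 21.4 CPM, in 0 of 12 low cells (which allows a share of cells at this level of up to 26.5%) and in 15 of 25 pEPI cells. The 12 low cells together gave 2 Prdm14 counts against 399 in the 11 retained cells, nearly all of them in D7, C6 and B8. The summed reads gave a log2 ratio of 7.86 with a counting interval of 6.00 to 10.9. None of these 4 genes was at a mean of 10 CPM or more over the 23 cells, so none enters the 2-fold count. Of the other members of the same lists some stood the same way, such as Lefty1 with 2 of 11 retained and 1 of 12 low cells. Others stood the other way. Nr0b1, a nuclear receptor of the naive network, was at 10 CPM or more in 6 of 11 retained and 9 of 12 low cells. Nodal was at this level in 1 of 11 and 2 of 12.

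The more abundant pluripotency factors lay on both sides of 0. Pou5f1 (OCT4) ran from 652.5 to 1176 CPM in retained and from 493.1 to 995.7 CPM in low cells, with a log2 ratio of 0.05, and its pEPI mean was 867.6 ± 128.5 CPM. Tfcp2l1 had a log2 ratio of -0.24, Zfp42 (REX1) of -0.11, Esrrb of 0.16 and Tbx3 of -0.45. Klf4 was higher in 72.0% of pairs, with means of 60.7 ± 39.1 and 37.9 ± 25.2 CPM (log2 ratio 0.67). Of the 10 factors of this list at 10 CPM or more, 3 lay above 0 and 7 below, and the median over all 14 was -0.003. Among ligands, Tdgf1, the NODAL co-receptor, had means of 1130 ± 566.3 and 946.4 ± 616.4 CPM, and Lefty1, a NODAL antagonist, reached 529 CPM in C6 and 30.8 CPM in F5 while D3, on the low side, had 48.5 CPM. Leaving C6 out turned the log2 ratio of Lefty1 from 3.32 to -0.05.

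**Figure D3:**
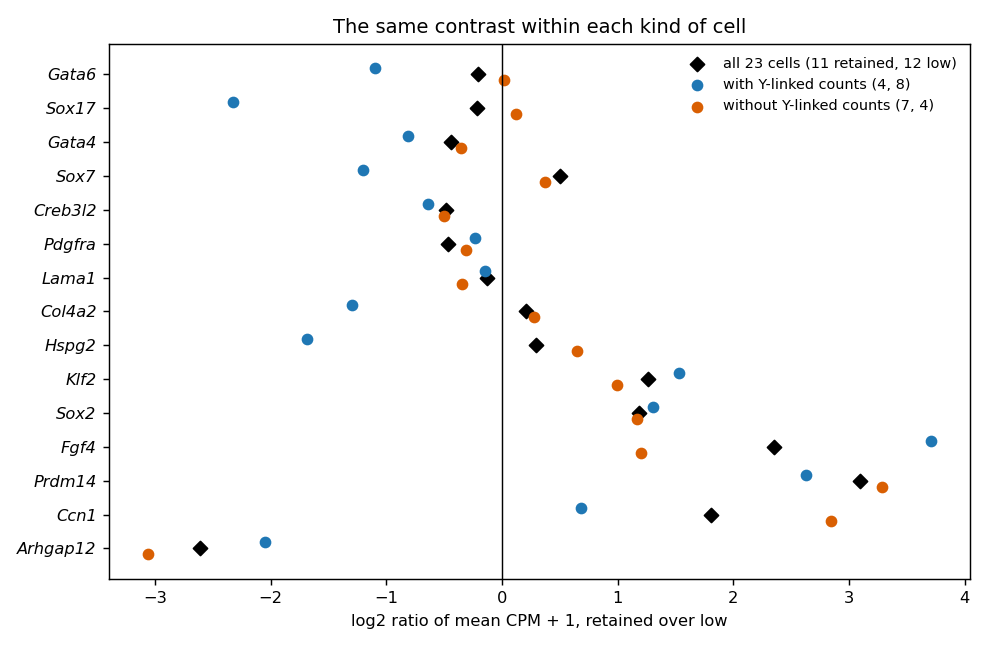
Log2 ratio of mean CPM + 1 of retained over low cells (horizontal axis) for 15 genes, over all 23 cells (black diamonds) and among cells with (blue) and without (orange) Y-linked counts, with the numbers of retained and low cells in the key. Sox17 stands at -2.32 among cells with and 0.12 among cells without Y-linked counts, whereas Klf2, Sox2 and Fgf4 stand above 0, and Arhgap12 below -2, in both kinds.

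Across all genes the difference was small. Of 7768 genes with a mean of at least 10 CPM over the 23 cells, Nanog left out, 102 (1.31%) had a mean at least 2-fold higher in retained cells, and 91 (1.17%) at least 2-fold lower, where the ratio had to stay at 2-fold without the highest cell of the higher group. This is the 2-fold rule used above. Before the highest cell was left out, 226 and 207 genes passed. No gene separated the groups completely, and the median log2 ratio of all 7768 genes was 0.03. Of the 102 higher genes, 91 lay above 0 in both kinds of cells and 45 at 2-fold in both, and of the 91 lower genes, 87 lay below 0 and 41 at 2-fold in both. Over all 7768 genes 26.8% lay above 0 in both kinds and 23.3% below, but the named shares are largely fixed by choosing the genes on these same cells and support nothing. Counts of this kind rest on cells of 3 embryos and carry no error for embryos.

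**Figure D4:**
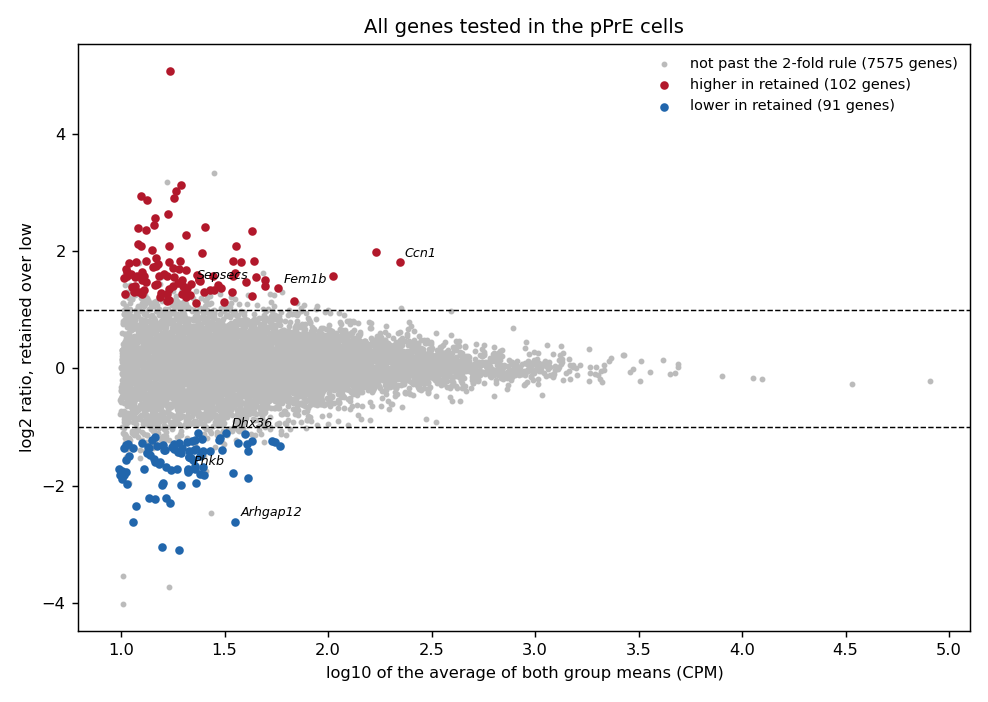
Log2 ratio of retained over low cells (vertical axis) against the log10 of the average of both group means in CPM (horizontal axis) for the 7768 genes, with dashed lines at 2-fold. The 102 red and 91 blue genes past the 2-fold rule lie mostly at low levels, and Ccn1, at 1.81, is among the few well expressed ones.

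Ccn1, which encodes a secreted matricellular protein and is a common target of YAP, was the higher gene with the most ordered cells. Retained cells had 45.4 to 1664 CPM with a median of 127.8, and low cells 0 to 646.1 CPM with a median of 44.7, and the retained cell was higher in 88.6% of pairs. The groups overlapped, since 2 retained cells, C5 and D1, lay above every low cell and 6 low cells lay under every retained cell. The log2 ratio was 1.81, with 0.68 and 2.84 among cells with and without Y-linked counts (0.01 among the former without E1), and the summed reads gave 1.79 with a counting interval of 1.75 to 1.84. The pEPI mean was 80.1 ± 110.6 CPM, close to the low mean of 97.9 ± 175.4 CPM and under the retained mean of 344.7 ± 479.7 CPM.

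Ccn1 did not follow Nanog from end to end. Its high values lay in cells of middle Nanog. In the 9 cells under 25 CPM of Nanog it had a mean of 40.6 ± 31 CPM, in the 8 cells from 25 to under 100 CPM a mean of 491.8 ± 537.3 CPM, and in the 6 cells at 100 CPM or more a mean of 111.2 ± 43.9 CPM. The low cell nearest the threshold, E6, had 646.1 CPM and the retained cells C5, D1, E1 and D2 had 1664, 733.6, 402.6 and 205.7 CPM. With the Nanog threshold at 100 CPM instead of 50 the log2 ratio turned to -1.18. Ccn2, a relative of the same CCN family, had means of 132.3 ± 105.5 and 87.2 ± 110.5 CPM with a log2 ratio of 0.60. In the mouse genome Ccn1 lies on chromosome 3 (GRCm38, 145646976 to 145649981, reverse strand). Its promoter is shown since Ccn1 leads the higher genes, at chr3:145649936-145650235 of GRCm38.p6 from RefSeq, reverse strand, with capitals marking CATTCC, the reverse complement of the TEAD letters GGAATG, and ACGTCA, the reverse complement of the CREB and ATF letters TGACGT. They begin 103 and 59 bases before the start.
Ccn1 promoter: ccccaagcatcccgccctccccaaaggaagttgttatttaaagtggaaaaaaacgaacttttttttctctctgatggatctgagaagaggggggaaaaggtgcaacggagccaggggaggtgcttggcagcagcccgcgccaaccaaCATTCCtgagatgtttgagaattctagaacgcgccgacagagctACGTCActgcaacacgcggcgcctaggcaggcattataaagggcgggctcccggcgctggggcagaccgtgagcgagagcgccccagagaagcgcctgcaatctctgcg
Over the same 27025 promoters and both strands, GGAATG stood in 14.6% and TGACGT in 7.64%, so neither is rare, and a match is no evidence of binding here.

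The other 9 genes named on the higher side were taken by the share of pairs in which the retained cell was higher, from 87.9% for Sepsecs, the last enzyme of selenocysteine synthesis on its tRNA, to 81.1% for E2f5, an E2F family factor. Fem1b, a substrate receptor of a CUL2 ubiquitin ligase, had 20.1 to 128.1 CPM (median 95.8) in retained and 5 to 97.8 CPM (median 31.3) in low cells, with a log2 ratio of 1.36 and 1.23 and 1.81 within the kinds. Usp25, a deubiquitinase, had counts of at least 10 CPM in D1, D2, C5, C6, F5, D7 and B8 among retained cells and in D8 and F7 among low cells, with means of 29.7 ± 32.9 and 3.98 ± 8.604 CPM (log2 ratio 2.63). Ube3c, a ubiquitin ligase, had means of 67.8 ± 44.2 and 22.4 ± 17.5 CPM (log2 ratio 1.56), and Ppp1r1a, an inhibitor of protein phosphatase 1, 28.2 ± 22.6 and 5.85 ± 8.51 CPM (log2 ratio 2.09). Plpp2, a lipid phosphatase, Hps3, a subunit of a complex that serves lysosome-related organelles, and Tex2 had log2 ratios of 1.55, 1.73 and 1.56. Each of the 10 lay above 0 in both kinds of cells, and none separated the groups.

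Arhgap12, which encodes a GTPase-activating protein for Rac, was the lower gene with the most ordered cells. All 12 low cells had it at 26.2 to 123.3 CPM with a median of 58.4, whereas 9 of 11 retained cells had 0 to 2.91 CPM and the other two, D2 and B8, had 37.2 and 55.7 CPM. A retained cell was higher in 6.82% of pairs, and the means were 9.29 ± 18.9 and 62.0 ± 29.8 CPM. The log2 ratio was -2.61, with -2.05 (-1.71 without E1) and -3.06 among cells with and without Y-linked counts. Over the alternatives tried it stayed between -4.20 and -1.10. Arhgap12 reached 10 CPM in 16 of 25 pEPI cells, with a mean of 27.4 ± 32.5 CPM, so the retained mean lay under both other groups. Thinning all cells to 1718970 counts left counts in 6 of 11 retained cells and 12 of 12 low cells, as without thinning.

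The other 9 genes named on the lower side ran from 10.6% of pairs for Phkb, the beta subunit of phosphorylase kinase, and for Dhx36, a helicase that opens G-quadruplexes, to 16.7% for Coq2, an enzyme of ubiquinone synthesis, and Ncoa2, a nuclear receptor coactivator. Phkb had means of 9.22 ± 10.6 and 33.01 ± 19.1 CPM (log2 ratio -1.74), and Dhx36 20.1 ± 13.8 and 44.1 ± 14.7 CPM (log2 ratio -1.10), where 7 retained cells lay under every low cell. Hormad2, known from meiotic chromosomes, had means of 6.80 ± 8.19 and 22.4 ± 13.6 CPM. Cbr4, Marc2 and Mccc2, which encode mitochondrial enzymes, had log2 ratios of -1.40, -1.41 and -1.11, and Htatip2 -1.24. Each of the 10 lay below 0 in both kinds of cells, Coq2 at -0.16 among cells without Y-linked counts being the nearest to 0. Cep57, a centrosomal protein chosen here after its values were seen, was the one further gene with the retained cell higher in at most 10% of pairs (6.82%), at a smaller log2 ratio of -0.81.

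**Figure D5:**
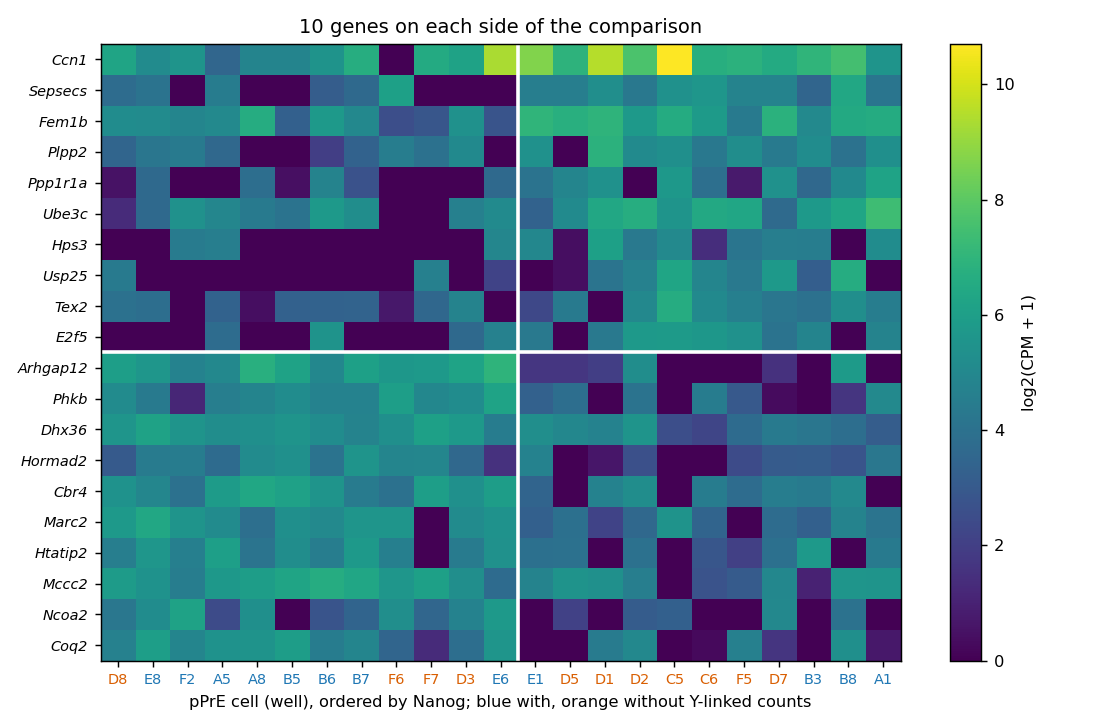
Level (colour, log2 of CPM + 1) of the 10 named genes on the higher side (upper block) and the 10 on the lower side (lower block) in the 23 pPrE cells, ordered by Nanog along the horizontal axis with the white line at 50 CPM and well names in blue with and orange without Y-linked counts. Arhgap12 is dark in 9 of the 11 retained cells and bright in all 12 low cells, and Ccn1 exceeds 200 CPM in C5, D1, E1 and D2 on the retained side and in E6 on the low side.

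The pEPI cells, which entered neither group, are set beside these genes as a reference. For 68 of the 102 higher genes the pEPI mean lay between the low and the retained mean, for 21 it lay past the retained mean and for 13, Ccn1 among them, past the low mean. For the 91 lower genes the numbers were 69, 11 and 11, with Arhgap12 among the 69. These counts are a description, since the branch and the groups were drawn from the same cells. The share over all genes was not computed. Choosing genes by a wide gap between both groups also widens the range in which the pEPI mean can fall.

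Of the genes of ERK signalling and of the cell surface, 1 of 18 at 10 CPM or more passed the rule, beside 1.31% and 1.17% of all genes. Of the 12 targets and feedback inhibitors of ERK, 8 were at 10 CPM or more and none passed. Spry2, a feedback inhibitor, had means of 588.6 ± 249.6 and 556.4 ± 293.9 CPM, Etv5, an ETS target of FGF, 111.5 ± 76.5 and 71.7 ± 75.1 CPM (log2 ratio 0.63), and Dusp4, an ERK phosphatase, 70.3 ± 57.8 and 107.1 ± 69.3 CPM (log2 ratio -0.60). Of the 10 genes of the cell surface and cortex, Myh10, the heavy chain of non-muscle myosin IIB, passed, with 0 to 54.3 CPM (median 18.3) in retained and 0 to 20.3 CPM (median 1.89) in low cells and a log2 ratio of 1.58, and 1.42 and 1.69 within the kinds. Ezr (ezrin), Actn4 (an actinin) and Cdh1 (E-cadherin) had log2 ratios of 0.40, 0.43 and 0.22, and Cdh3 (P-cadherin) -0.91, a value that turned to 1.41 without its highest cell.

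Markers of the trophectoderm, the outer layer removed by immunosurgery, were low in both groups. The summed level of the 8 markers ran from 79.1 to 333.6 CPM in retained and from 43.1 to 273.2 CPM in low cells, mostly from Krt8, Tead4 and Eomes, which ICM cells can also express. Of the defining markers, Krt7 was at 0 in all 23 cells, and Cdx2 had counts in 1 retained cell at 0.355 CPM. Gata3 reached 10 CPM in A1 at 42.8 CPM and in the low cells E8, B7 and D8 at 15.1, 13.2 and 12 CPM, and Elf5 in B8 at 19.8 CPM, so A1 and B8, which are among the 3 cells with the most Nanog, each held 1 such marker, whose part in the other values was not tested. None of the 3 members at 10 CPM or more passed the 2-fold rule, beside 1.31% higher and 1.17% lower of all genes.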

How the data were processed

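The authors deposited whole-number counts of 49671 genes in 48 Smart-seq2 libraries, 1 cell each, made from mm10 alignments and Ensembl 87 genes with htseq-count (HTSeq; STAR is named in the submitters' notes). They removed libraries under 500000 mapped reads, with uneven coverage of gene bodies (a ratio above 1.5), or that PCA set apart. The deposited counts are not normalized. Symbols were found for 49326 IDs. Strand is not stated, so overlapping genes cannot be told apart.

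CPM was computed as count over the cell's total. The 2-fold rule compared means of CPM with 1 CPM added, at a mean of at least 10 CPM. Named genes were the 10 on each side with the most ordered pairs of cells, the markers, up to 4 per list and list members whose role is described. Members, lists and rules were chosen with earlier results of these data known. The values of 1 list member are not reported here. The scde test of the study, edgeR and DESeq2 were not run, since the cells are 1 sample. Calculations used Python 3.11.15, pandas 2.3.3 and scipy 1.17.1 and were tested on simulated data.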

Additional observations from a re-analysis of the deposited data

How the results depend on the processing

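The counts of genes past the 2-fold rule, 102 higher and 91 lower, depended on where Nanog was divided and on how ratios were formed. They were 177 higher with the threshold at 25 CPM, 61 and 252 at 100 CPM (13 and 49 shared with the reported genes), and 214 lower with the cells from 25 to under 100 CPM left out. A minimum mean of 1 CPM gave 394 and 415, one of 50 CPM 5 and 3, a pseudocount of 10 CPM 20 and 13, mean log2 values 329 and 384, and keeping the highest cell 226 and 207. Cells with Y-linked counts alone gave 398 lower, and cells without 372 and 156. Leaving out the cells of each of 6 well letters gave 79 to 163 higher, the most without B, and 106 to 191 lower, the most without D. In 4 alternatives chosen after seeing the data, 169 genes were lower without the 3 cells above 200 CPM of Nanog, and 284 and 307 passed on the mean of the ratios within both kinds of cells, 110 and 121 passed without E1, and 85 and 116 without C6. The median of ratios as library size gave 85 and 105, 85 and 90 of them shared, and moved the median of all genes from 0.03 to -0.02. The cause of these shifts was not tested.

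The SD between cells, against which medians and single ratios were compared, is wide here, so staying within it does not show stability. Past it moved the median of the formative genes, which rests on the 3 of 7 members at 1 CPM or more. In the report's setting it was 0.98, which is the ratio of Dnmt3b alone. It was -0.43 at 100 CPM and 0.09 without the 25 to 100 CPM cells. Among cells with Y-linked counts it was -0.85, and on the mean within kinds -0.18. Of the 25 named genes past the 2-fold rule, 3 changed sign under at least 1 alternative, and of the 54 named genes not past it, 34 did. The 3 were Ccn1 at 100 CPM (-1.18), Amn at 100 CPM (-0.21), among cells with Y-linked counts (-2.06) and on the mean within kinds (-0.47), and Fgfr3 among cells with Y-linked counts (-0.25). No paired analysis was possible because the labels put all cells in 1 group and give no number that ties a retained to a low cell. At these depths, a gene near 10 CPM rests on few reads per cell, without molecular identifiers, and absence of counts is not absence of expression.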

Other observations

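Among the genes past the 2-fold rule at a mean of at least 50 CPM, chosen here after their values were seen, 5 were higher in retained cells (Slc2a3, Sgk1, Praf2, Ccn1 and Fem1b) and 3 lower (Cth, Rad54l and Zfp958). Slc2a3, a glucose transporter gene that lies beside Nanog on chromosome 6 (GRCm38, 122727809 to 122801640), had means of 273.7 and 68.8 CPM. Its high values lay in C5, D1 and C6 at 1183, 639.9 and 624.6 CPM, and in the low cell D3 at 403.4 CPM, whereas the 4 retained cells with Y-linked counts had at most 1.77 CPM, so the log2 ratio was 1.98 over all cells, -3.36 among cells with and 1.30 among cells without Y-linked counts. Sgk1, a serum-induced kinase, had medians of 129.6 and 41.6 CPM (log2 ratio 1.57), with 0.74 and 1.74 within the kinds. Cth, an enzyme of cysteine synthesis, and Rad54l, a factor of homologous recombination, had log2 ratios of -1.25 and -1.23, both below 0 in both kinds. X-linked genes were 8 of the 102 higher genes (7.84%), 1 of the 91 lower (1.10%) and 260 of the 7768 (3.35%), beside the unequal share of cells without Y-linked counts in the groups, whose part in this was not tested.

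Of the 7 formative genes, which come on around implantation, only 3 had a mean of 1 CPM or more. Dnmt3b, a de novo DNA methyltransferase, had 43.4 to 1853 CPM (median 428.4) in retained and 73.7 to 740.5 CPM (median 188.8) in low cells. In pEPI cells it ran from 0 to 191.2 CPM. Its log2 ratio was 0.98, with -1.07 among cells with and 0.71 among cells without Y-linked counts. Dnmt3a, its relative, had -0.64. The mean score of the 3 genes was 5.158 in low, 5.255 in retained and 3.834 in pEPI cells. Dnmt3b and Dnmt3a carried most of this score, so it does not describe each of the 3 genes or the formative genes as a whole. Of 14 S phase genes 1 passed, beside 1.31% higher and 1.17% lower of all genes, Ccne1 (cyclin E1), with medians of 0.515 and 30.9 CPM and a log2 ratio of -1.29, and Mcm6, a subunit of the replicative helicase, had -0.48. No mitosis gene passed among 13, beside the same shares of all genes, and the list had a median of 0.24. Of the apoptosis and p53 list, 2 of 9 genes lay above 0 and 7 below, none past the rule, beside the same shares. Of the 8 immediate early and heat shock genes at 10 CPM or more, which dissociation of cells can raise, none passed, beside the same shares. Ier2 and Egr1 had log2 ratios of 0.69 and 0.63. The score of the list was 5.36 ± 0.77 in low and 5.89 ± 0.38 in retained cells.

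The cell of well C6, at 101.1 CPM of Nanog, combined values that stood apart in both directions of the lineage. It had the highest Sox7 (286.6 CPM), Sox17 (569.5 CPM), Dab2 (166.5 CPM) and Lefty1 (529 CPM) of the 23 cells together with 29.8 CPM of Prdm14 and 28.7 CPM of Fgf4, at 4769167 counts and 11001 genes detected. Whether this well held more than 1 cell was not tested. The largest log2 ratio of the genes past the rule was that of Gm12031, named here after its values were seen, at 5.07. It was read in D5, D2, B3 and C6 at 150.4, 114.1, 98.4 and 14.9 CPM and at under 1 CPM in each other pPrE cell. On the lower side Aldh1a1, a retinaldehyde dehydrogenase, had the largest, at -3.08, with 176 CPM in E8 and 118.3 CPM in A8, and 0.43 among cells without Y-linked counts.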
